A study of Homo sapiens with 12 samples.

Results

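The genes described here are 34 genes of the G1/S transition and of DNA replication, measured in the U87 line, a long-established human glioma culture. They were taken by symbol, and a gene was tested where at least 1 of its probes on the Illumina bead array had a detection p-value, the share of background probes at least as bright, under 0.01 on at least 3 of the 12 arrays. Of 51 probes to these genes 45 were kept, out of 18105 kept probes on the array, and 32 of the 34 genes were tested among 10686 genes. GINS1, a GINS subunit, and CCNE2, which encodes cyclin E2, had no kept probe and were not tested.

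Cells had received siRNA against BCL3 (Dharmacon; siBCL3) or a control siRNA (siCtrl) and then the alkylating drug temozolomide (TMZ, 100 µM, 24 h) or DMSO, with 3 arrays for each of the 4 groups: siBCL3 with TMZ, siBCL3 with DMSO, siCtrl with TMZ and siCtrl with DMSO. Each group is the same cell line, so the comparisons describe U87 alone. The labels give neither the siRNA sequence nor whether 1 sequence or a pool was used. Nor do they tell whether the arrays of a group are separate cultures, and the spread that the p-values rest on may therefore be technical. BCL3 is a nuclear member of the I-kappa-B family and binds the NF-kB subunits p50 and p52.

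In proliferating cells, cyclin-dependent kinases release E2F transcription factors from the retinoblastoma protein late in G1, and E2F then drives many of the genes listed here. Origin recognition, CDC6 and CDT1 load the MCM2-7 helicase on DNA. CDC45 and GINS activate it, and polymerases held by the PCNA clamp copy the strands with nucleotides made by ribonucleotide reductase and thymidylate synthase.

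Mean raw intensity ran from 229.6 to 317.5 over the 12 arrays, and 34.6% to 37.7% of probes were detected. Correlations of log2 values were 0.9956 to 0.9972 within groups, and the lowest between any 2 arrays was 0.9822. Of the 10 glial and glioma markers 7 were detected, with GFAP, S100B and SOX2 not detected, and of the 10 leukocyte markers 4 were detected (CD14, LYZ, CD68 and CD74), with PTPRC, CD3E, ITGAM, TYROBP and LAPTM5 not detected. CD68 averaged 10.91 ± 0.07 with siBCL3 and TMZ and 10.98 ± 0.08 with siCtrl and TMZ. The targeted transcript BCL3 averaged 6.54 ± 0.02 with siBCL3 and TMZ and 7.30 ± 0.06 with siCtrl and TMZ (log2 intensity, SD, n = 3 each). With DMSO it averaged 6.38 ± 0.09 with siBCL3 and 7.37 ± 0.11 with siCtrl, and no siBCL3 array reached any siCtrl array. MKI67, a marker of cycling cells, fell by 1.14 with siBCL3 under TMZ and by 1.08 under DMSO on the log2 scale. CCNB1, which encodes the mitotic cyclin B1, went the other way: it rose by 0.21 under TMZ (SE 0.07, adjusted p = 0.0264) and stood at 0.16 under DMSO (adjusted p = 0.0827), without overlap of the groups under either treatment. The CCNB1 call was lost without siBCL3 with TMZ replicate 1 (0.0898) or 3 (0.0623), without siCtrl with TMZ replicate 2 (0.107) or 3 (0.0558), with median scaling (0.427) and with cyclic loess (0.0533). GDF15, a stress-induced cytokine used as a check of TMZ, rose by 1.04 with siBCL3 and by 1.35 with siCtrl.

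The promoter windows of members (300 bases, 250 before and 50 from the annotated start on, RefSeq, GRCh38.p14) were searched because many of these genes moved together. Windows were found for 30 members, 40 windows in all since some genes have several starts. MCM4, MCM5, CCNE2 and E2F8 were not searched. The E2F motif was searched as TTTGGCGC, TTTGCCGC, TTTCGCGC and TTTCCCGC on both strands, and matches may overlap on opposite strands. At least 1 match lay in 17 of the 40 windows (42.5%), belonging to 16 genes, against 3.31% of the 35116 windows of all genes, tested or not. The list was made of G1/S and replication genes, many of them driven by E2F, so this excess could be foreseen from the list. It was not a test of the falls with siBCL3. CCAAT, on either strand, lay in 60.0% of member windows against 34.6% of all windows. The kB consensus lay in 10 of the 40 windows, against 11.3% of all windows, and TTTGAA, the CHR motif of later cell cycle genes, lay in 2.5% against 15.2%. Of the genes that fell with siBCL3 under both treatments 16 had a window and 9 of them an E2F match, and of the other tested members 13 had a window and 6 a match. A kB match lay in 5 of the same 16 genes and in 3 of the same 13. These matches describe letters in a window and were not tested as binding sites.

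Windows of 6 members described by array are printed to show the E2F motif, in capitals. MCM6 (chr2:135876394-135876693, minus strand) has 4 matches in a pair of runs, with first bases at -152, -148, -90 and -86 relative to the start, counted as 0. MCM3 (chr6:52284693-52284992, minus strand) has 2, at -174 and -4. POLE2 (chr14:49688165-49688464, minus strand) has 1 at -5, RFC3 (chr13:33817899-33818198, plus strand) 1 at -55, and E2F2 (chr1:23531184-23531483, minus strand) 1 at -42. PCNA (chr20:5126573-5126872, minus strand), whose transcript was not called with siBCL3, has 1 at -59 in 1 of its 2 windows.
MCM6: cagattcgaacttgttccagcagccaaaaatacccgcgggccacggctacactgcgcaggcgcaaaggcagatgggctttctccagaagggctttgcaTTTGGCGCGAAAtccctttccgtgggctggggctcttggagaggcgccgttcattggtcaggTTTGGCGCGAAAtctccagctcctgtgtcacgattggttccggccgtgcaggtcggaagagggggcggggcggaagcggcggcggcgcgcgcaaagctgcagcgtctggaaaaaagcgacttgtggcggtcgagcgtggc
MCM3: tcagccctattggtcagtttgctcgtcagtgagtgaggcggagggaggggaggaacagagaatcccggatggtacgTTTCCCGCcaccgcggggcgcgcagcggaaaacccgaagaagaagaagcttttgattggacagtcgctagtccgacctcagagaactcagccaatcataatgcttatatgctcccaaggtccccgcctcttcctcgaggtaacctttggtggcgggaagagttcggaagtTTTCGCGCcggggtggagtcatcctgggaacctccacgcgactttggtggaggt
POLE2: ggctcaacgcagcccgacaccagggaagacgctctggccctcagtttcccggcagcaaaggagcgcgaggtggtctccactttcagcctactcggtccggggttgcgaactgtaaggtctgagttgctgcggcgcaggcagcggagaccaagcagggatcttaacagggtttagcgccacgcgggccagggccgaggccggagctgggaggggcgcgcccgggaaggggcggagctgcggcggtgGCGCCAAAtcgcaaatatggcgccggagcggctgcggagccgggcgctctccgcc
RFC3: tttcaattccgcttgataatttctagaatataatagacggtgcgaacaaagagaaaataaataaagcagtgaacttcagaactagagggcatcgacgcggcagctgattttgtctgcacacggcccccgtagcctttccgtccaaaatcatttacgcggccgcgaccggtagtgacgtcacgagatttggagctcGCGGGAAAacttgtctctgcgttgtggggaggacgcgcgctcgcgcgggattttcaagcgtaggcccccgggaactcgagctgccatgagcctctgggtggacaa
E2F2: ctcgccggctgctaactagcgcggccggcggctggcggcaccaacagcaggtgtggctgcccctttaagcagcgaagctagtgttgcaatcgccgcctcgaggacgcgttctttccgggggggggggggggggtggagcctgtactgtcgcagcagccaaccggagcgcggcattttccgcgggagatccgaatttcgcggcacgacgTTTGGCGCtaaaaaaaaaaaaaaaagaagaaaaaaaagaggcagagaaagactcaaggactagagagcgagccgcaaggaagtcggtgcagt
PCNA: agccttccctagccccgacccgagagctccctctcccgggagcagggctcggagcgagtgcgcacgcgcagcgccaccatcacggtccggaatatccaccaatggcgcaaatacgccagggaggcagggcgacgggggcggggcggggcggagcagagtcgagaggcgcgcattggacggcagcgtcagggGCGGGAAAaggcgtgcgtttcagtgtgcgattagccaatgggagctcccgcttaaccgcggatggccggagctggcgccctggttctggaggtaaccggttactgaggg

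RRM2, the member with the lowest log2 fold change under both treatments, is shown with the kB consensus in capitals (chr2:10122318-10122617, plus strand). This window, 1 of 2 for the gene, holds 4 matches, with first bases at -80, -56, -45 and -22, and it holds no E2F match of the letters searched. The kB consensus also lay in windows of MCM3, POLD1, UHRF1 and CHAF1B, which fell under both treatments. Windows of MCM7, MCM10 and PCNA, whose brightest probes were not called with siBCL3, held it as well.
RRM2: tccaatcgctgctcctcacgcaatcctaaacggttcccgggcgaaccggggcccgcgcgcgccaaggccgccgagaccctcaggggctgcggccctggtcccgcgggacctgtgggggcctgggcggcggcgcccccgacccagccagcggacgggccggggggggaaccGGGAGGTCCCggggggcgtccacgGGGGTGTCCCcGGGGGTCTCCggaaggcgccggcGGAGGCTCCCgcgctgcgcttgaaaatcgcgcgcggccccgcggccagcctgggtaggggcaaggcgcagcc

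The first comparison set siBCL3 against siCtrl under each treatment. Most of the tested G1/S and replication transcripts were lower with siBCL3. Under TMZ 21 of 32 members fell and 1 rose, where 20.2% of all genes tested fell and 18.6% rose. Under DMSO 19 fell and 0 rose, where 20.1% of all genes fell and 20.7% rose. Calls are limma tests with p-values adjusted by Benjamini and Hochberg over all 10686 genes, at 0.05. The median log2 fold change of the members was -0.27 under TMZ and -0.26 under DMSO, against 0.00 and 0.01 over all genes. Under both treatments 18 of 32 members fell (56.2%), as did 15.5% of all genes. RFC4, POLA1 and E2F8 fell under TMZ and missed the threshold under DMSO, CDC6 the reverse, and the test of the difference passed for none of these 4. Groups did not overlap, with siBCL3 lower, for 26 members under TMZ (25.4% of all genes) and 23 under DMSO (24.4%). Scaling moved some calls. With median scaling over all probes the TMZ calls of MCM3, MCM4, MCM5, GINS2, RFC4, RRM1, TYMS, UHRF1 and CHAF1B were lost, and with the median of kept probes those of MCM4, GINS2, RFC4, RRM1 and UHRF1 under TMZ and of CDC6, GINS2, RRM1 and UHRF1 under DMSO. In bulk RNA, fewer cells in S phase and less of a transcript per cell cannot be told apart.

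**Figure D1:**
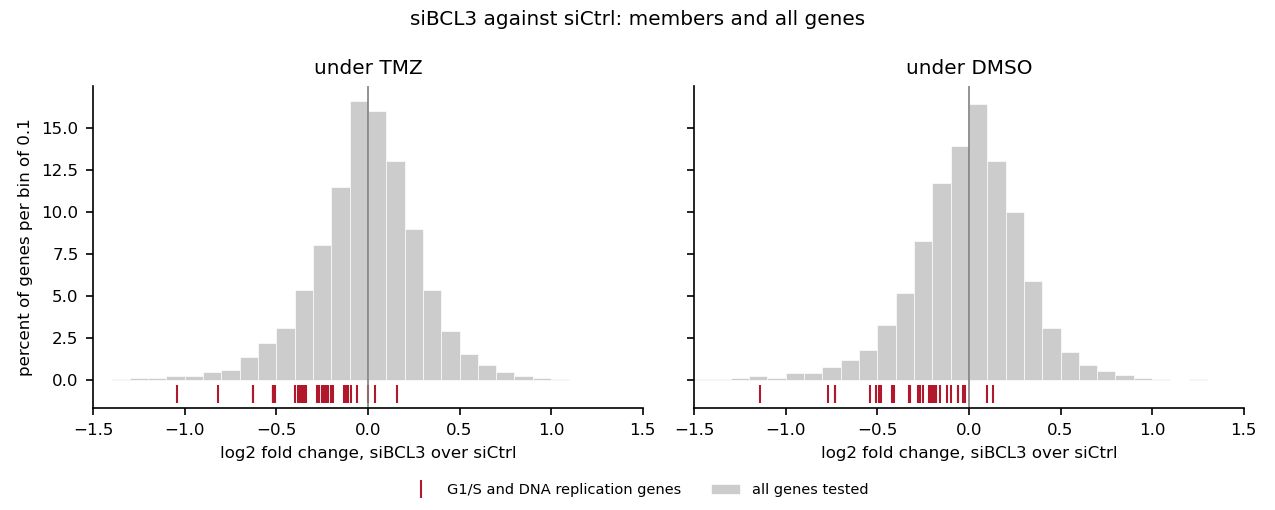
Share of all 10686 genes per bin of 0.1 of the log2 fold change, siBCL3 over siCtrl (grey bars, in percent), with a red tick for each of the 32 tested members, under TMZ (left) and DMSO (right); the axis leaves out genes beyond 1.5. Members lie mostly left of 0, with medians of -0.27 and -0.26, inside the range of the other genes.

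**Figure D2:**
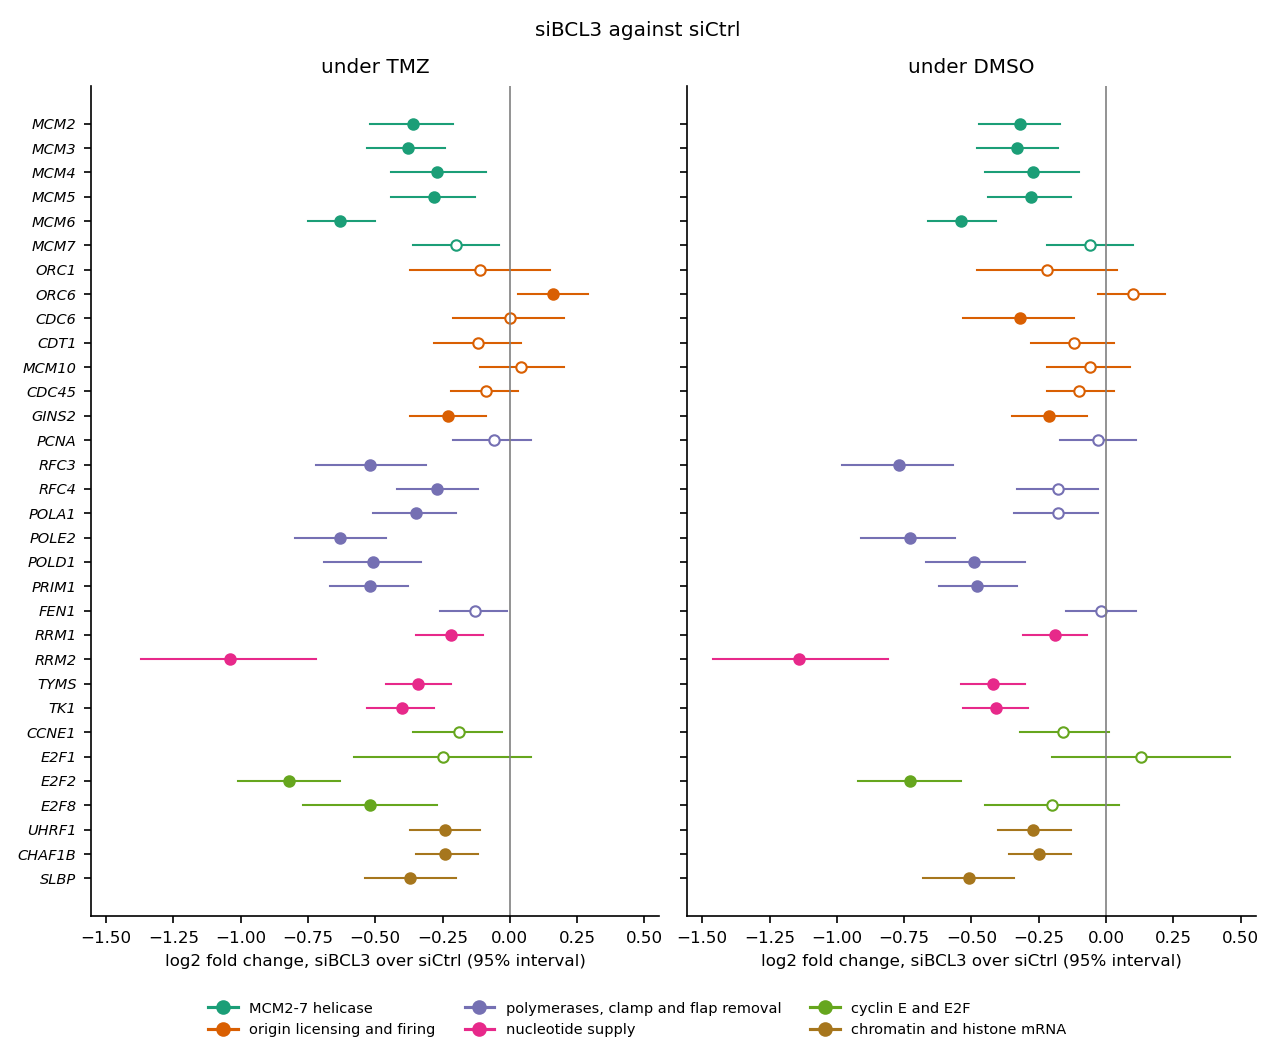
Log2 fold change of each member, siBCL3 over siCtrl, with its 95% interval from limma, under TMZ (left) and DMSO (right). Filled points passed an adjusted p of 0.05 over all genes and open points did not; colours give the role. All 4 nucleotide supply genes and all 3 chromatin and histone mRNA genes fell under both treatments, while the licensing genes have medians of -0.09 and -0.12.

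The MCM2-7 helicase unwinds DNA at the fork, and 5 of its 6 subunit genes fell under each treatment, with a median of -0.32 under TMZ and -0.30 under DMSO. MCM6 read 9.48, 9.38 and 9.48 with siBCL3 and TMZ, against 10.08, 10.12 and 10.03 with siCtrl and TMZ (log2 intensity of each array). With DMSO it read 9.78, 9.73 and 9.70 with siBCL3 and 10.32, 10.29 and 10.21 with siCtrl. All siBCL3 arrays lay below all siCtrl arrays, whichever treatment they had, and the lowest were those with both siBCL3 and TMZ. It fell by 0.63 under TMZ (SE 0.06, adjusted p = 3.12e-06), a 1.55-fold lower intensity, and by 0.54 under DMSO (SE 0.06, adjusted p = 1.24e-05).

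MCM3 measured 10.84, 10.73 and 10.92 on the siBCL3 arrays with TMZ and 11.27, 11.24 and 11.12 on the siCtrl arrays with TMZ. On the DMSO arrays it measured 11.00, 11.01 and 11.00 with siBCL3 and 11.24, 11.41 and 11.35 with siCtrl. The groups were apart under both treatments, and the spread among siBCL3 arrays with DMSO was small. The log2 fold changes were -0.38 (SE 0.07, adjusted p = 0.00069) and -0.33 (SE 0.07, adjusted p = 0.00187). For MCM2 the arrays gave 8.14, 8.15 and 8.12 with siBCL3 and 8.51, 8.58 and 8.42 with siCtrl under TMZ, and 8.36, 8.41 and 8.15 with siBCL3 against 8.66, 8.62 and 8.60 with siCtrl under DMSO. No siBCL3 array reached a siCtrl array of the same treatment, and siBCL3 with DMSO replicate 3 stood below the other 2 of its group. MCM2 fell by 0.36 under TMZ (adjusted p = 0.00131) and by 0.32 under DMSO (adjusted p = 0.00296).

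MCM5 fell by 0.28 under TMZ and 0.28 under DMSO, and MCM4 by 0.27 and 0.27. The MCM4 call under TMZ was lost without siBCL3 with TMZ replicate 3 (adjusted p = 0.0844), siCtrl with TMZ replicate 2 (0.0536) or replicate 3 (0.0544), and that under DMSO without siCtrl with DMSO replicate 1 (0.0786). MCM7 missed the threshold, at -0.20 under TMZ (95% interval -0.36 to -0.04, adjusted p = 0.0506) and -0.06 under DMSO (-0.22 to 0.10).

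Of 7 tested genes of origin licensing and firing 1 fell and 1 rose under TMZ, and 2 fell under DMSO, with medians of -0.09 and -0.12. GINS2, a subunit of the GINS complex that turns on the helicase, read 9.39, 9.44 and 9.41 with siBCL3 and 9.70, 9.65 and 9.58 with siCtrl under TMZ. Its DMSO arrays read 9.48, 9.47 and 9.57 with siBCL3 and 9.61, 9.73 and 9.81 with siCtrl. Groups were separate under both treatments, by a small margin under DMSO. It fell by 0.23 (SE 0.06, adjusted p = 0.0117) under TMZ and by 0.21 (SE 0.06, adjusted p = 0.0173) under DMSO. The DMSO call of GINS2 was lost without siBCL3 with DMSO replicate 1 (0.0502) or 2 (0.0587) or siCtrl with DMSO replicate 3 (0.0725).

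CDC6, the loader of the helicase, was dim, and its probe was detected on 2 of 3 arrays with siBCL3 and TMZ, 1 of 3 with siBCL3 and DMSO, and 3 of 3 in both siCtrl groups. Under TMZ it read 4.64, 4.97 and 4.83 with siBCL3 and 4.78, 4.87 and 4.81 with siCtrl. Under DMSO the values were 4.78, 4.60 and 4.93 with siBCL3 and 5.07, 5.00 and 5.21 with siCtrl. The groups overlapped under TMZ and were apart under DMSO, where the siCtrl arrays were the highest of the 12. The log2 fold change was 0.00 under TMZ (adjusted p = 0.977) and -0.32 under DMSO (SE 0.10, adjusted p = 0.0167). That DMSO call was lost without siCtrl with DMSO replicate 3 (0.0682) or siBCL3 with DMSO replicate 2 (0.0769).

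ORC6, the smallest subunit of the origin recognition complex, measured 13.40, 13.31 and 13.42 with siBCL3 and 13.22, 13.27 and 13.16 with siCtrl under TMZ. The 3 siBCL3 arrays were higher by a narrow gap, and ORC6 rose by 0.16 (SE 0.06, adjusted p = 0.0482). The call was lost in 18 of 28 alternatives, among them leaving out any 1 array except siBCL3 with DMSO replicate 2 or siBCL3 with TMZ replicate 2, with the highest adjusted p among those at 0.154 without siCtrl with TMZ replicate 3. Under DMSO ORC6 was at 0.10 (adjusted p = 0.222). Its other kept probe, detected on all 12 arrays, did not show the rise, at 0.03 under TMZ (adjusted p over probes = 0.811) and -0.12 under DMSO (0.292). ORC1, the largest origin recognition subunit, the loader CDT1, and MCM10 and CDC45, which act in helicase activation, were not called under either treatment, with log2 fold changes of -0.11, -0.12, 0.04 and -0.09 under TMZ and -0.22, -0.12, -0.06 and -0.10 under DMSO.

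Among the polymerases, clamp and flap removal genes, 6 of 8 fell under TMZ and 4 under DMSO, with medians of -0.43 and -0.33. POLE2, the second subunit of leading-strand polymerase epsilon, read 7.05, 7.13 and 6.97 with siBCL3 and TMZ and 7.76, 7.69 and 7.58 with siCtrl and TMZ. The corresponding DMSO values were 7.03, 7.00 and 6.80 with siBCL3 and 7.57, 7.77 and 7.69 with siCtrl. Every siBCL3 array was far below every siCtrl array, and TMZ and DMSO arrays of one siRNA overlapped. POLE2 fell by 0.63 (SE 0.08, adjusted p = 5.1e-05) under TMZ and by 0.73 (SE 0.08, adjusted p = 1.42e-05) under DMSO.

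RFC3, a subunit of the loader that places PCNA on DNA, read 7.56, 7.39 and 7.17 with siBCL3 and 7.79, 7.87 and 8.02 with siCtrl under TMZ. With DMSO its values were 7.41, 7.22 and 7.41 with siBCL3 and 8.05, 8.14 and 8.15 with siCtrl. The siBCL3 arrays were below the siCtrl arrays in both treatments. The log2 fold change was -0.52 under TMZ (SE 0.09, adjusted p = 0.000867) and -0.77 under DMSO (SE 0.09, adjusted p = 3.97e-05), and the test of that difference did not pass (0.25, 95% interval -0.04 to 0.54, adjusted p = 0.772). Of its 2 other kept probes, 1 also fell, by 0.62 under TMZ and 0.52 under DMSO, and the dimmest went the other way, at 0.33 under TMZ (adjusted p over probes = 0.0508) and 0.45 under DMSO (0.012).

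PRIM1, the catalytic subunit of primase, measured 7.86, 7.92 and 7.91 with siBCL3 and 8.40, 8.44 and 8.42 with siCtrl under TMZ. Its DMSO arrays gave 7.87, 7.97 and 7.98 with siBCL3 and 8.47, 8.52 and 8.27 with siCtrl. There was no overlap, and PRIM1 fell by 0.52 (SE 0.07, adjusted p = 5.34e-05) under TMZ and 0.48 (SE 0.07, adjusted p = 0.000105) under DMSO. POLD1, the catalytic subunit of polymerase delta, read 6.41, 6.29 and 6.61 with siBCL3 and 6.92, 6.88 and 7.04 with siCtrl under TMZ. Under DMSO it read 6.61, 6.41 and 6.57 with siBCL3 and 6.97, 6.99 and 7.09 with siCtrl. Its groups were apart under both treatments, with log2 fold changes of -0.51 (adjusted p = 0.00042) and -0.49 (adjusted p = 0.000594).

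POLA1, the catalytic subunit of polymerase alpha, fell by 0.35 under TMZ (adjusted p = 0.00174) and stood at -0.18 under DMSO (adjusted p = 0.0543). RFC4, another clamp loader subunit, fell by 0.27 under TMZ (adjusted p = 0.00905) and stood at -0.18 under DMSO (adjusted p = 0.0591). PCNA, the clamp itself, was at -0.06 under TMZ (95% interval -0.21 to 0.08) and -0.03 under DMSO (-0.17 to 0.11), and neither passed. FEN1, which removes RNA-DNA flaps from the lagging strand, was at -0.13 and -0.02, also without a call.

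All 4 nucleotide supply genes fell under both treatments, with medians of -0.37 under TMZ and -0.42 under DMSO. RRM2, the small subunit of ribonucleotide reductase, had the lowest fold change of all members. Its arrays read 7.81, 8.22 and 7.56 with siBCL3 and TMZ, against 8.76, 8.84 and 9.12 with siCtrl and TMZ. With DMSO they read 7.93, 7.73 and 7.62 with siBCL3 and 8.92, 9.04 and 8.73 with siCtrl. All 6 siBCL3 arrays were below all 6 siCtrl arrays, although arrays of siBCL3 with TMZ were spread widely (SD 0.33, n = 3). RRM2 was 2.06-fold lower under TMZ (log2 fold change -1.04, SE 0.15, adjusted p = 0.000143) and 2.2-fold lower under DMSO (-1.14, SE 0.15, adjusted p = 7.17e-05). Folds are on a scale with an offset of 16 and understate changes of dim probes.

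TK1, the thymidine kinase of the salvage pathway, read 9.25, 9.33 and 9.37 with siBCL3 and 9.73, 9.70 and 9.74 with siCtrl under TMZ. It read 9.42, 9.36 and 9.30 with siBCL3 and 9.82, 9.74 and 9.75 with siCtrl under DMSO. The 2 siRNAs were cleanly apart, and TK1 fell by 0.40 (SE 0.06, adjusted p = 0.000117) and by 0.41 (SE 0.06, adjusted p = 9.9e-05). TYMS, thymidylate synthase, measured 10.25, 10.26 and 10.25 with siBCL3 and 10.59, 10.64 and 10.55 with siCtrl under TMZ. Under DMSO it measured 10.06, 10.13 and 10.11 with siBCL3 and 10.49, 10.60 and 10.47 with siCtrl. Here too no arrays overlapped, and the falls were 0.34 (adjusted p = 0.000392) and 0.42 (adjusted p = 7.05e-05). RRM1, the large reductase subunit, had log2 fold changes of -0.22 under TMZ (adjusted p = 0.00723) and -0.19 under DMSO (adjusted p = 0.0158). Its DMSO call was lost without siCtrl with DMSO replicate 3 (0.0651) or siBCL3 with DMSO replicate 3 (0.0515).

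E2F2, an activating E2F factor, was the most changed regulator of transcription among the members. It read 7.48, 7.31 and 7.41 with siBCL3 and 8.30, 8.18 and 8.18 with siCtrl under TMZ. The DMSO arrays read 7.54, 7.47 and 7.62 with siBCL3 and 8.08, 8.30 and 8.45 with siCtrl. All 6 siBCL3 arrays were below all 6 siCtrl arrays. E2F2 fell by 0.82 (SE 0.09, adjusted p = 1.33e-05) under TMZ and by 0.73 (SE 0.09, adjusted p = 3.39e-05) under DMSO. E2F8, an atypical repressor E2F, was dim and was detected on 2 of 3 arrays with siBCL3 and TMZ and on all 9 other arrays. Its values were 4.84, 4.46 and 4.95 with siBCL3 and 5.42, 5.32 and 5.07 with siCtrl under TMZ. With DMSO they were 4.84, 4.87 and 4.82 with siBCL3 and 5.04, 4.97 and 5.13 with siCtrl. Groups were apart under both treatments, and the second siBCL3 array with TMZ was the lowest of all. E2F8 fell by 0.52 under TMZ (SE 0.11, adjusted p = 0.00314) and stood at -0.20 under DMSO (adjusted p = 0.179).

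E2F1, the first described activator E2F, was at -0.25 under TMZ (95% interval -0.58 to 0.08) and 0.13 under DMSO (-0.20 to 0.46), with wide intervals and no call. CCNE1, which encodes cyclin E1, was at -0.19 (adjusted p = 0.0643) and -0.16 (adjusted p = 0.123).

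The 3 genes of chromatin and histone mRNA all fell under both treatments. SLBP, which binds the stem loop of histone mRNAs, read 8.52, 8.57 and 8.54 with siBCL3 and 8.77, 9.03 and 8.92 with siCtrl under TMZ. Under DMSO its values were 8.74, 8.63 and 8.85 with siBCL3 and 9.29, 9.30 and 9.15 with siCtrl. The siBCL3 arrays were below the siCtrl arrays of the same treatment, and SLBP fell by 0.37 (SE 0.08, adjusted p = 0.00262) under TMZ and by 0.51 (SE 0.08, adjusted p = 0.000234) under DMSO. The other SLBP probe was not called, at 0.22 under TMZ and 0.19 under DMSO, and with probes averaged the calls were lost (-0.08, adjusted p = 0.382, and -0.16, adjusted p = 0.0589).

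UHRF1, which recruits the maintenance methyltransferase to new DNA, read 10.02, 10.19 and 10.11 with siBCL3 and 10.36, 10.28 and 10.39 with siCtrl under TMZ. Its DMSO arrays read 10.34, 10.30 and 10.41 with siBCL3 and 10.65, 10.60 and 10.60 with siCtrl. Groups did not overlap within a treatment, while siBCL3 arrays with DMSO and siCtrl arrays with TMZ covered overlapping ranges. The falls were 0.24 under TMZ (SE 0.06, adjusted p = 0.00801) and 0.27 under DMSO (SE 0.06, adjusted p = 0.00392). CHAF1B, a subunit of the histone chaperone CAF-1, read 7.55, 7.58 and 7.54 with siBCL3 and 7.73, 7.80 and 7.85 with siCtrl under TMZ. It read 7.53, 7.47 and 7.51 with siBCL3 and 7.72, 7.78 and 7.76 with siCtrl under DMSO. The groups were tight and separate, with falls of 0.24 (adjusted p = 0.00346) and 0.25 (adjusted p = 0.00236).

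**Figure D3:**
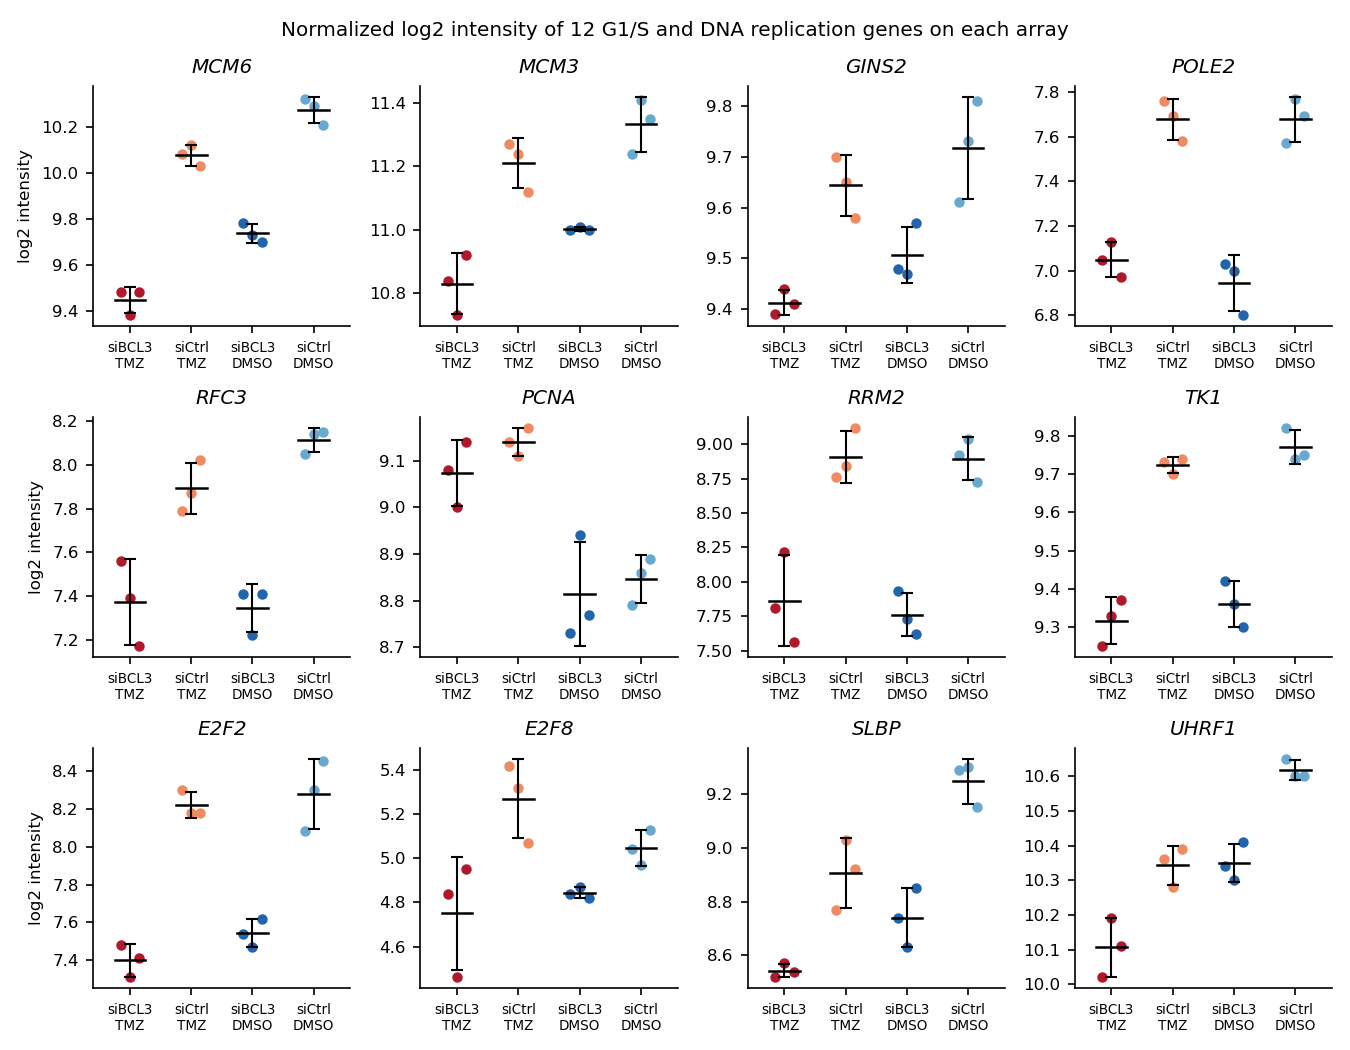
Normalized log2 intensity of 12 members on each array (points), with group means (bars) and SD (whiskers, n = 3), in the order siBCL3 with TMZ, siCtrl with TMZ, siBCL3 with DMSO and siCtrl with DMSO; each panel has its own axis, which does not start at 0. All panels except PCNA, UHRF1 and SLBP separate by siRNA, GINS2 and E2F8 by a narrow gap. PCNA separates by treatment. MCM6, MCM3, GINS2, UHRF1 and SLBP are lowest, without overlap with the other groups, with both siBCL3 and TMZ.

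Another 13 kept probes covered 12 of the members. Over all 45 member probes, in a fit over probes, 27 fell and 0 rose under TMZ (16.7% of all kept probes fell and 16.8% rose), and 25 fell and 1 rose under DMSO (17.3% and 17.6%). The second probes of MCM3 (-0.61 under TMZ, -0.65 under DMSO), RFC4 (-0.45, -0.49) and PRIM1 (-0.52, -0.47) fell under both treatments, as did the brightest MCM3 and PRIM1 probes. For MCM10 the brightest probe was not called and the other fell by 0.25 under TMZ (adjusted p over probes = 0.0227) and 0.34 under DMSO (0.00435). The other FEN1 probe stood at -0.03 under TMZ (0.86) and fell by 0.37 under DMSO (0.00708). The dim other UHRF1 probe, at -0.31 and -0.24, was not called. The other MCM4 probe fell by 0.25 under TMZ (adjusted p over probes = 0.0157) and was not called under DMSO (-0.11, 0.239). The other probes of MCM7 (-0.26 under TMZ, -0.17 under DMSO), ORC6 (0.03, -0.12) and PCNA (-0.01, -0.11) were not called.

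**Figure D4:**
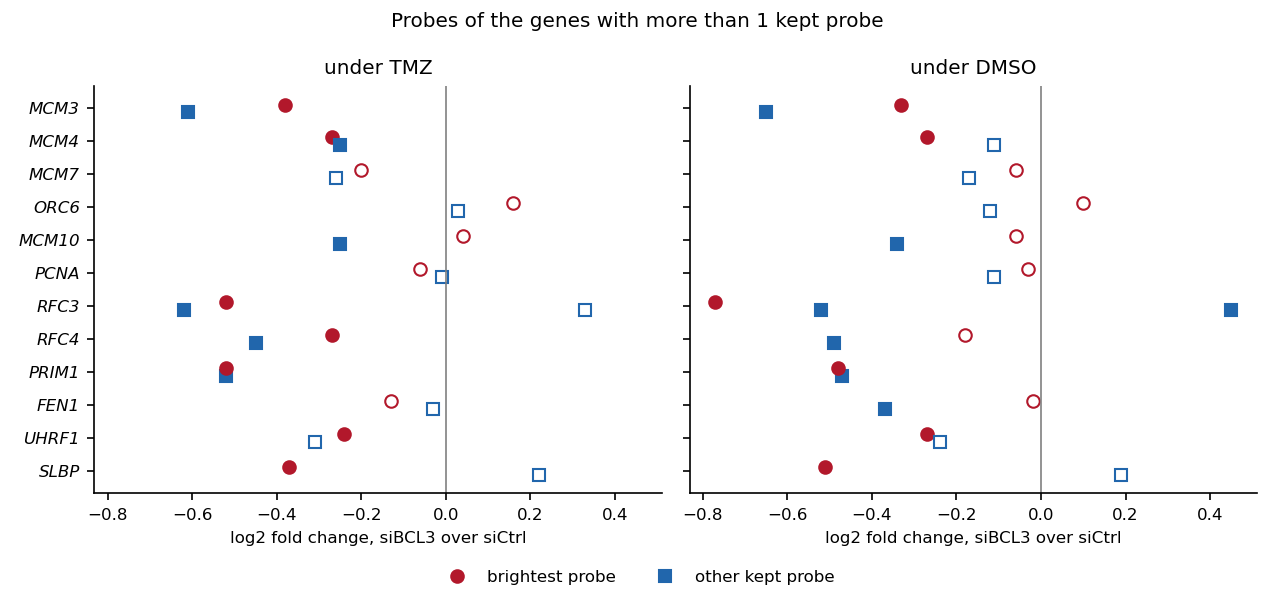
Log2 fold change, siBCL3 over siCtrl, of every kept probe of the 12 members with more than 1 kept probe, under TMZ (left) and DMSO (right); circles are the probe that represents the gene, squares the other kept probes, and filled symbols passed an adjusted p of 0.05 over all kept probes. SLBP and 1 of the RFC3 probes lie on the other side of 0 from the brightest probe under both treatments.

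Of 97 other genes listed for the same processes 89 were tested. With siBCL3 40 fell and 13 rose under TMZ, and 40 fell and 9 rose under DMSO, with medians of -0.17 and -0.14. Over all genes tested 20.2% fell and 18.6% rose under TMZ, and 20.1% fell and 20.7% rose under DMSO. CDK6, a G1 kinase that phosphorylates the retinoblastoma protein, read 9.00, 9.11 and 9.01 with siBCL3 and 7.19, 7.19 and 7.16 with siCtrl under TMZ, and rose by 1.86 under TMZ (SE 0.06) and 1.91 under DMSO (SE 0.06). CDC25A, the phosphatase that activates CDK2, read 6.43, 6.46 and 6.53 with siBCL3 and 7.67, 7.70 and 7.78 with siCtrl under TMZ, and fell by 1.24 under TMZ (SE 0.07) and 1.21 under DMSO (SE 0.07). The siBCL3 and siCtrl arrays of both genes were far apart.

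Nucleotide supply outside the members also had more falls than rises, 9 and 0 of 13 genes under each treatment. For this list and the next, the shares of all genes were 20.2% fallen and 18.6% risen under TMZ. Under DMSO they were 20.1% and 20.7%. TK2, the mitochondrial thymidine kinase, fell by 0.70 and 0.71, and RRM2B, the p53-induced reductase subunit, by 0.53 under TMZ and 0.84 under DMSO. Among G1/S regulators 10 fell and 5 rose of 22 under TMZ, and 9 fell and 4 rose under DMSO. E2F5, a repressor E2F, fell by 0.61 and 0.63, and SKP2, the F-box protein that targets p27, by 0.67 and 0.55. E2F7, an atypical repressor like E2F8, rose by 0.60 and 0.60, and the CDK inhibitor CDKN1A by 0.44 and 0.51. CCND1, which encodes cyclin D1, fell by 0.20 and 0.19, and RB1 fell by 0.32 under TMZ (adjusted p = 0.0368) and was not called under DMSO (-0.27, adjusted p = 0.0748). The DMSO call of CDKN1A was lost with median scaling (0.0773), and CCND1 lost both calls with the median of kept probes (0.582 under TMZ, 0.554 under DMSO). The CCND1 call was lost without siCtrl with TMZ replicate 2 (0.0509) under TMZ, and under DMSO without siCtrl with DMSO replicate 3 (0.0605) or siBCL3 with DMSO replicate 1 (0.0654). The RB1 call was lost without any 1 of the siBCL3 arrays with TMZ replicates 1 (0.0871) and 3 (0.112) or of the siCtrl arrays with TMZ replicates 2 (0.12) and 3 (0.111).

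Other measures moved with the siRNA as well. Mean raw intensity was 229.6 to 258.0 with siBCL3 and DMSO against 265.9 to 317.5 with siCtrl and DMSO, while under TMZ it was 241.8 to 283.0 with siBCL3 and 260.7 to 263.5 with siCtrl. With log2 mean raw intensity as a covariate 21 members fell under TMZ and 14 under DMSO, where CDC6, CHAF1B, GINS2, MCM4 and UHRF1 lost their calls. All 4 detected neuron and oligodendrocyte markers fell under both treatments, where 20.2% of all genes fell under TMZ and 20.1% under DMSO. SYT1 was detected on 0 of 3 arrays in each siBCL3 group and on 3 of 3 in each siCtrl group. MAP2 was detected on 2 of 3 siBCL3 arrays with TMZ, 0 of 3 with DMSO, and 3 of 3 in each siCtrl group. SYT1 and MAP2 were thus kept only through the groups where they are high. Their falls therefore carry no weight beside the shares of all genes. The summed intensity of the list, in which TUBB3 was the brightest, was 1140 to 1250 for siBCL3 with TMZ against 1520 to 1600 for siCtrl with TMZ. With DMSO it was 1280 to 1320 for siBCL3 against 1540 to 1680 for siCtrl. MBP, MOG and RBFOX3 were not detected. The MAP2 calls in that list were lost under TMZ without siBCL3 with TMZ replicate 2 (0.149) or 3 (0.0515) or siCtrl with TMZ replicate 1 (0.133) or 2 (0.128), and under DMSO without siBCL3 with DMSO replicate 1 (0.0596) or siCtrl with DMSO replicate 2 (0.0578) or 3 (0.0694). The glial and glioma list summed to 18200 to 19200 for siBCL3 with TMZ against 21600 to 22400 for siCtrl with TMZ, and to 18700 to 20200 for siBCL3 with DMSO against 23400 to 24600 for siCtrl with DMSO. Of its 7 detected genes 4 fell and 1 rose under TMZ, and 3 fell and 1 rose under DMSO. CD44 fell by 0.62 and 0.65, while SPARC rose by 0.80 (adjusted p = 4.12e-07) and 0.71 (adjusted p = 1.07e-06). Under TMZ the falls of VIM and OLIG2 were lost without siBCL3 with TMZ replicate 1 (0.069 and 0.0644), that of VIM without siCtrl with TMZ replicate 1 (0.0597) or 3 (0.0581), and that of OLIG2 without siBCL3 with TMZ replicate 2 (0.0701) or siCtrl with TMZ replicate 1 (0.0805).

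The leukocyte list summed to 2050 to 2240 for siBCL3 with TMZ against 2180 to 2390 for siCtrl with TMZ, and to 1970 to 2030 for siBCL3 with DMSO against 2240 to 2540 for siCtrl with DMSO. CD74 fell by 0.46 under TMZ and 0.61 under DMSO. LYZ was at -0.18 under TMZ (adjusted p = 0.25) and rose by 0.46 under DMSO (adjusted p = 0.00762; 0.376 with raw intensity as a covariate). CD68 was at -0.07 under TMZ and fell by 0.23 under DMSO, a call lost without siCtrl with DMSO replicate 1 (0.0614) or 3 (0.0544). TEK, the 1 endothelial marker detected of 5, fell by 0.67 and 0.57. EPCAM, the 1 epithelial marker detected of 7, fell by 0.52 under TMZ (adjusted p = 0.0031; 0.0794 with probes averaged) and was at -0.11 under DMSO (adjusted p = 0.465). These markers, and CCNB1, were named after their values were seen. Their part in the members' results was not tested.

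The second comparison set TMZ against DMSO with each siRNA. Few members changed. With siBCL3 1 of 32 fell and 0 rose, where 0.459% of all genes fell and 0.599% rose, and with siCtrl 0 were called, where 0.393% fell and 0.468% rose. In limma at an unadjusted p under 0.05 there were 9 members with siBCL3 (28.1%, against 15.1% of all genes) and 8 with siCtrl (25%, against 15.3%). The members' median was -0.05 with siBCL3 and -0.01 with siCtrl. These comparisons share their arrays with those of the siRNA above, which gives no independent view of the same groups. In an average over both siRNAs, 3 members fell and 1 rose (2.12% and 2.71% of all genes).

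MCM6, with the array values given above, was lower on every TMZ array than on every DMSO array of the same siRNA. It fell by 0.29 with siBCL3 (SE 0.06, adjusted p = 0.034), stood at -0.20 with siCtrl (adjusted p = 0.127), and fell by 0.24 on average (SE 0.04, adjusted p = 0.00564). The call with siBCL3 was lost without any 1 array of the siBCL3 groups (adjusted p 0.0569 to 0.115), without siCtrl replicate 2 with DMSO (0.0524) or with TMZ (0.0556), and in a fit of the arrays compared (0.16). It was also lost with median scaling (0.575), with the replicate number as a block (0.0546) and with mean raw intensity as a covariate (0.0751). The 5 other MCM2-7 genes lay between -0.17 and -0.05 with siBCL3 and between -0.15 and 0.02 with siCtrl, and none was called.

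UHRF1 and SLBP did not overlap between treatments with either siRNA, with TMZ lower (9.79% of all genes with siBCL3, 9.81% with siCtrl). Of the 32 members 8 were lower without overlap with siBCL3 and 6 with siCtrl, and MCM2 and MCM6 were so with both. Higher without overlap were 6 members with siBCL3 and 4 with siCtrl, FEN1 and RRM1 with both. UHRF1 was at -0.24 with siBCL3 (adjusted p = 0.0798) and -0.27 with siCtrl (adjusted p = 0.0605), and on average fell by 0.26 (SE 0.04, adjusted p = 0.00595). SLBP was at -0.20 with siBCL3 (adjusted p = 0.258) and -0.34 with siCtrl (adjusted p = 0.0681), and on average fell by 0.27 (SE 0.06, adjusted p = 0.0181). Without siCtrl with DMSO replicate 1 the average SLBP call was lost (0.0514).

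PCNA was the member that rose. It read 9.08, 9.00 and 9.14 with TMZ and 8.73, 8.94 and 8.77 with DMSO on the siBCL3 arrays. On the siCtrl arrays it read 9.14, 9.11 and 9.17 with TMZ and 8.79, 8.86 and 8.89 with DMSO. All 6 TMZ arrays were above all 6 DMSO arrays, and the siRNAs overlapped. Within a siRNA, 9.69% of all genes were higher with TMZ without overlap for siBCL3 and 13% for siCtrl. The share of all genes that separate over both siRNAs together was not counted. The log2 fold change was 0.26 with siBCL3 (adjusted p = 0.0836) and 0.29 with siCtrl (adjusted p = 0.0651), and on average PCNA rose by 0.28 (SE 0.05, adjusted p = 0.006). Its dim other probe, detected on 10 arrays, was at -0.05 on average, and with probes averaged the value was 0.11 (adjusted p = 0.357). Over probes 1 member probe rose and 3 fell on average (1.26% and 1.25% of all kept probes). With median scaling over all probes the average calls were lost for PCNA (0.131), MCM6 (0.301), UHRF1 (0.198) and SLBP (0.218).

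**Figure D5:**
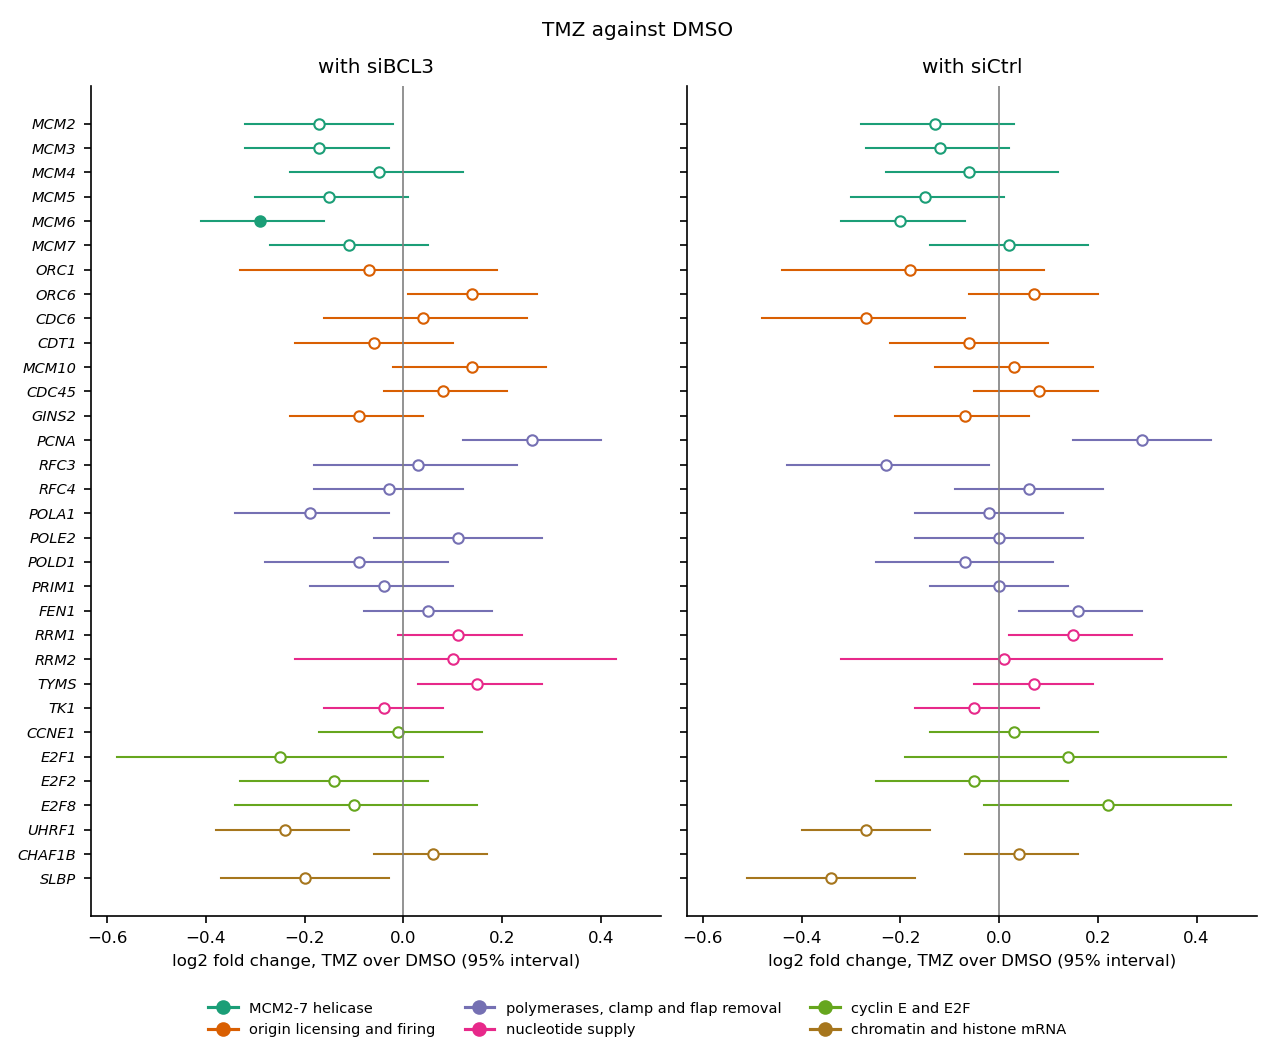
Log2 fold change of each member, TMZ over DMSO, with its 95% interval from limma, with siBCL3 (left) and siCtrl (right); filled points passed an adjusted p of 0.05 over all genes. MCM6 with siBCL3 is the 1 filled point. PCNA, UHRF1 and SLBP lie on the same side of 0 with both siRNAs, as do many other members, MCM2, MCM3 and RRM1 among them.

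The interaction asked whether the TMZ effect differed between siRNAs. No member passed (0 of 32; 0% of all genes), and in limma 1 member, CDC6, had an unadjusted p under 0.05, against 6.72% of all genes. Its difference of TMZ effects, siBCL3 minus siCtrl, was 0.32 (95% interval 0.02 to 0.61, limma unadjusted p = 0.0357, adjusted p = 0.733), from 0.04 with siBCL3 and -0.27 with siCtrl. The differences for RRM2 (0.10, interval -0.36 to 0.55), MCM6 (-0.09, -0.27 to 0.08) and E2F8 (-0.32, -0.67 to 0.03) had intervals that include 0.

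Of the 89 other replication and G1/S genes, TMZ changed 3 with siBCL3 and 2 with siCtrl. With siBCL3 2 rose and 1 fell, where 0.599% of all genes rose and 0.459% fell. With siCtrl 2 rose and 0 fell, where 0.468% of all genes rose and 0.393% fell. CDKN1A, the p53-induced CDK inhibitor, read 12.40, 12.39 and 12.35 with TMZ and 11.38, 11.42 and 11.48 with DMSO on siBCL3 arrays, and 11.97, 11.90 and 11.94 with TMZ and 10.92, 10.88 and 10.94 with DMSO on siCtrl arrays. The 4 groups did not overlap, and it rose by 0.95 with siBCL3 (SE 0.05, adjusted p = 1.72e-06) and 1.02 with siCtrl (SE 0.05, adjusted p = 3.66e-07). RRM2B rose by 0.61 with siBCL3 (adjusted p = 0.0331) and was at 0.30 with siCtrl (adjusted p = 0.26). The RRM2B call was lost without siBCL3 with DMSO replicate 2 (0.102) or 3 (0.0964) or siBCL3 with TMZ replicate 1 (0.0533) or 2 (0.0777), in a fit of the arrays compared (0.156), with raw intensity as a covariate (0.0911) and with no filter (0.0576). CDCA7, a chromatin factor that works with HELLS, fell by 0.43 with siBCL3 (adjusted p = 0.00267; 0.266 with median scaling), and TOP2A, the topoisomerase that untangles replicated DNA, rose by 0.32 with siCtrl (adjusted p = 0.0197). That TOP2A call was lost without any 1 of the 6 siCtrl arrays (0.0504 to 0.0984), with median scaling (0.591), with raw intensity as a covariate (0.105) and in a fit of the arrays compared (0.0523).

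Averaged over both siRNAs, 5 of these genes rose and 3 fell, where 2.71% of all genes rose and 2.12% fell. RRM2B rose by 0.46, GINS4, a GINS subunit, by 0.26 and TOP2A by 0.24, while CDCA7 fell by 0.33, MCMBP, which binds MCM subunits, by 0.24, and CCND1 by 0.15. CDK6 (-0.16 with siBCL3, -0.11 with siCtrl) and RB1 (-0.25, -0.19) were not called in any TMZ comparison. The average calls of GINS4 (adjusted p = 0.0405), MCMBP (0.0364) and CCND1 (0.048) were lost when most single arrays were left out (any single array for CCND1), with values up to 0.0981 without siCtrl with TMZ replicate 1, 0.0842 without the same array and 0.104 without siBCL3 with DMSO replicate 2.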

How the data were processed

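RNA of U87 cells (4 groups of 3 arrays, grouped by the labels) had been extracted with Trizol and columns and labelled as biotin cRNA, per the labels' protocols. The authors deposited intensity values of 47320 probes, not normalized, each with a detection p-value, per the file headers; those p-value columns name no sample and were matched to intensity columns by rank correlation. A second deposited table holds the authors' processed intensity values, some below 0 and in the rank order of the raw ones on each array; it served as an alternative. Scanning software is not given in the sources used here.

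Raw values were processed with neqc of limma 3.58.1 (R 4.3.3; negative controls inferred from detection p-values, offset 16, quantile normalization, log2). Probes with p under 0.01 on at least 3 arrays were kept, and the brightest represented each gene. A group-means model over 12 arrays (lmFit, eBayes, 8 residual degrees of freedom) gave 6 comparisons, with 2-sided p-values adjusted by Benjamini and Hochberg over 10686 genes. The model fit was tested on simulated log2 values, while background correction, normalization, the filter and the probe choice were not. Same-numbered arrays showed little shared deviation (correlations of -0.15 to 0.19, 4 of 18 pairs over 0.1), so arrays were not paired. The number of arrays limits the precision.

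Members and lists were chosen with earlier results of these data known. Arrays are given in full for up to 3 called members per role and comparison with the largest change; of the other genes up to 6 called per comparison are named, plus CDKN1A, CDK6, CCND1, RB1 and RRM2B. Promoter windows are RefSeq's (GRCh38.p14). Alternatives changed background correction, scaling, filter, probe choice, moderation, block, covariate and arrays, 1 at a time; scaling to the median of kept probes was added after seeing the data.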

Additional observations from a re-analysis of the deposited data

How the results depend on the processing

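No member's called value changed sign in any alternative. Apart from averaging, no alternative used a gene's other probes. The dimmest RFC3 probe and the other SLBP probe lay above 0 with siBCL3 against siCtrl under both treatments. Of 5300 values of members over all 6 comparisons 5131 stayed on the same side of the threshold, 73 lost a call and 96 gained one. Most of the 5300 had no call to lose. With TMZ against DMSO in siCtrl cells, and in the interaction, all 32 members were not called to begin with. E2F2, MCM2, MCM6, POLD1, POLE2, PRIM1, RFC3, RRM2 and TK1 fell with siBCL3 under both treatments in all 28 alternatives. Leaving out 1 array at a time gave 20 to 22 members called with siBCL3 under TMZ and 16 to 20 under DMSO, 0 to 1 for TMZ with siBCL3, 0 to 1 for TMZ with siCtrl, 3 to 5 for TMZ on average and 0 for the interaction. With median scaling over all probes, where the median of all genes was -0.03 under TMZ and -0.26 under DMSO (0.00 and 0.01 with quantile normalization), 12 members were called with siBCL3 under TMZ and 29 under DMSO, 0 for TMZ with siBCL3, 1 with siCtrl and 0 on average; 35% and 4.88% of called genes then rose, against 48% and 50.7%. With the same scaling the median of all genes was 0.13 for TMZ with siBCL3 (96.8% of called genes rose, against 56.6%), -0.11 with siCtrl (15.7%, against 54.3%) and 0.25 for the interaction, where 11 genes were called and 0 members. Median scaling over kept probes (65.1% of called genes rose under DMSO and 59.2% under TMZ) gave 1 for TMZ with siCtrl, and with siBCL3 16 members fell and 1 rose under TMZ and 15 fell and 1 rose under DMSO. For TMZ with siBCL3, with siCtrl and on average the counts were 3, 4 and 9 with no background correction, 3, 4 and 8 with normexp by maximum likelihood, and 3, 4 and 10 with trend and robust moderation. An offset of 50 gave 3 with siBCL3 and 3 with siCtrl, detection on all 12 arrays 3 with siCtrl and array weights 3 with siCtrl. TMZ with siBCL3 had 0 members called in a fit of the arrays compared and with mean raw intensity as a covariate. The labels give a replicate number alone, and 4 of 12 arrays correlated best with their own number. Whether same-numbered arrays were handled together is not known. With the replicate number as a block, 21 members were called with siBCL3 under TMZ, 19 under DMSO, and 0 for TMZ with siBCL3. There MCM6 had an adjusted p of 0.0546. The cause of these moves was not tested. Probes near background, such as those of CDC6 and E2F8, limit what can be read from their folds.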
